A study of Mus musculus with 12 samples.

Results

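The genes described here encode the axon guidance and cell migration cues and their receptors: the semaphorins of classes 3 to 7, plexins, neuropilins Nrp1 and Nrp2, Eph receptors, ephrins, Slits, Robos, netrins, and the netrin receptors Dcc and Unc5a to Unc5d. They were chosen by symbol and not by a measured value, though with earlier results of these data known. Of the 23433 genes named in the peak lists, 69 had such a symbol: 20 semaphorins, 10 plexins, 2 neuropilins, 14 Eph receptors, 8 ephrins, 3 Slits, 4 Robos, 4 netrins and 4 netrin receptors. The RefSeq gene table holds 2 further names, Unc5d and the antisense RNA Plxna4os1, which had no peak in any list, so 71 names were followed in all. One of the 69, Plxna4os2, is an antisense RNA that had 1 peak, outside promoters, in neonatal replicate 2. That left 68 protein-coding genes with a peak.

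Acetylation of lysine 8 on histone H4 (H4K8ac), a mark of active chromatin, was mapped by chromatin immunoprecipitation and sequencing in oligodendrocyte progenitor cells (OPCs), the dividing glia that make myelin-forming oligodendrocytes. Per the labels, the cells were primary forebrain cells sorted from mice of genotype PdgfrαH2BEGFP, whose nuclear green fluorescent reporter is tied to the OPC gene Pdgfra. All samples share this genotype, and the groups differ by age alone: neonatal cells were taken at postnatal day 5 and adult cells at postnatal day 60. Each age has 3 H4K8ac libraries labelled as biological replicates, and 6 input libraries were not analysed here. The labels do not say how many animals went into a replicate, and a sort by Pdgfra keeps any other cell that carries the reporter.

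Guidance cues attract or repel growing axons and migrating cells. Class 3 semaphorins and Slits are secreted, the class 4 to 6 semaphorins and B ephrins span the membrane, and the A ephrins and Sema7a are tethered to it. Plexins, alone or with neuropilins, receive semaphorins; Eph receptor tyrosine kinases bind ephrins and can signal in both directions; Robos bind Slits; Dcc and the Unc5 proteins bind netrins. In the oligodendrocyte lineage Sema3a, Sema3f and netrin 1 are known to steer migrating progenitors, and Sema4d and Sema6a are made by oligodendrocytes.

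The promoters below show the range of sequence at which the mark was seen. Promoter windows came from the RefSeq table of build GRCm38.p6, which holds 75 windows for 59 of these genes. Each window runs from 250 bases before a transcript start to 50 bases after it, and a library was counted where a peak overlapped the window. The CG numbers of windows were counted in the 250 bases before the start alone. The rule picked the genes with promoter peaks in every adult and no neonatal library (Dcc, Robo3, Robo4) and the pair ranked highest in the neonatal lists (Ephb2, Plxnc1). Only bases before the outermost known start of the gene are printed, which leaves none of the chosen Robo3 and Ephb2 windows, and Dcc is not in the table. Efna2, Sema6b, Sema4a and Epha8 were added after their values were seen. Sequences read 5′ to 3′ on the gene's strand, with each CG dinucleotide in capitals.
Robo4: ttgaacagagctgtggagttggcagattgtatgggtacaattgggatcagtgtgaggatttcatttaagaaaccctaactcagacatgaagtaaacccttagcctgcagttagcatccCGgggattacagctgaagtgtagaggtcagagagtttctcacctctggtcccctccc
Sema4a: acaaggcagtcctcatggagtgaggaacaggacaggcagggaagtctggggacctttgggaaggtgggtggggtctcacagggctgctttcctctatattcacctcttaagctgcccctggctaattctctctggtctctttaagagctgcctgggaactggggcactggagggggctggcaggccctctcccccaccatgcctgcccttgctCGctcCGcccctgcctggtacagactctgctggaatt
Plxnc1: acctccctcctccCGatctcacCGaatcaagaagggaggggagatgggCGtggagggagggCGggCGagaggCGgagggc
Sema6b: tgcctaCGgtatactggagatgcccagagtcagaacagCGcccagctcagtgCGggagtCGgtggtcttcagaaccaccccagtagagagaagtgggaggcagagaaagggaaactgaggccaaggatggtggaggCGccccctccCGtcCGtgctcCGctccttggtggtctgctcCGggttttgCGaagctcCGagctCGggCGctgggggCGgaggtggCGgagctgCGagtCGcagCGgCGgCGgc
Efna2: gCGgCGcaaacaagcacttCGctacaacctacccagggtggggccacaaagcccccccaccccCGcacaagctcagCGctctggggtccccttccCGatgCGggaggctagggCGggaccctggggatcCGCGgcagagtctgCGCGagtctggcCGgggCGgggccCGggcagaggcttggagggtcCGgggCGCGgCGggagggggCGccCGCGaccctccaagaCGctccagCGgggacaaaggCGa
Epha8: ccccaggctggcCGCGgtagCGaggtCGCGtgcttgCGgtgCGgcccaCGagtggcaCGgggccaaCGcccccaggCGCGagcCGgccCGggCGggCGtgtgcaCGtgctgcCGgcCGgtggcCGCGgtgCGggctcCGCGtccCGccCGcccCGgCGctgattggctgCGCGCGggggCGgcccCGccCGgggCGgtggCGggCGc
The Robo4 stretch lies at chr9:37401722-37401896 on the plus strand, and the Sema4a stretch at chr3:88461183-88461432 on the minus strand. They hold 1 CG in 175 bases and 2 CG in 250 bases, and their windows overlapped peaks in 0 of 3 neonatal and 3 of 3 adult libraries. The Plxnc1 stretch at chr10:94945016-94945095 on the minus strand holds 6 CG in 80 bases, and its window had peaks in 3 neonatal and 2 adult libraries. Sema6b, at chr17:56140344-56140593 on the minus strand, and Efna2, at chr10:80179232-80179481 on the plus strand, hold 20 and 25 CG in 250 bases and had peaks in all 6 libraries. The Epha8 stretch at chr4:136956860-136957066 on the minus strand is the richest, with 37 CG in 207 bases. Its window had peaks in 2 neonatal and 0 adult libraries.

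Across the guidance promoters the same contrast held as a description. The 17 windows with a peak in 2 or 3 neonatal libraries held a median of 22 CG (range 11 to 46). The 24 windows whose sole neonatal peak was in replicate 2 held a median of 16.5 CG, and the 16 windows with peaks in adult libraries alone held 7.5 CG (range 1 to 27). The 18 windows without a peak in any library held 8.5 CG, so a low CG number did not by itself separate windows with adult peaks from windows with none. All 75 windows together had a median of 15 CG, against 10 over the 21263 windows of protein-coding genes and 6 over all 32851 windows. The letters GGGCGG, the GC box, searched on both strands, stood in 70.7% of the guidance windows and 42.6% of those of protein-coding genes. TATAAA on both strands stood in 2 of the 75 windows, or 2.67%, against 11.6%, and CAGCTG, which reads the same on both strands, in 12 of the 75 against 12.1%. GGGCGG contains a CG, so its share is not independent of the CG number.

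List length was 9097, 31189 and 7353 peaks in the neonatal replicates 1, 2 and 3 and in the adult ones 72278, 72661 and 77002, so every number of peaks below carries this difference in list length. Read totals are not in the files. The background level recovered from the authors' fold values was 2.64, 2.95 and 2.96 fragments in the neonatal and 1.77, 2.53 and 3.53 in the adult libraries, and these ranges overlap. Neonatal replicate 2 stood apart from the other neonatal libraries with a list over 3 times as long, and results that rest on it are given with and without it. Promoter peaks were seen at 8, 8 and 7 of 8 OPC markers in the neonatal and 7, 7 and 6 in the adult libraries, and at 1, 1 and 1 of 8 mature oligodendrocyte markers in the neonatal and 8, 8 and 8 in the adult libraries. Of 8 neuronal markers, 0, 5 and 1 had a promoter peak in the neonatal and 5, 3 and 3 in the adult libraries, with none at Snap25 and Stmn2 in any. Of 8 endothelial markers, 0 in each neonatal and 2 in each adult library had one (Pecam1 and Kdr), with none at Cldn5 and Cdh5. Of 8 astrocyte markers, 2, 6 and 2 had one in the neonatal and 4, 2 and 5 in the adult libraries, with none at Aqp4, and of 8 microglial markers only Cx3cr1 did, in the adult libraries. Of 8 fibroblast markers 0, 4 and 0 had one in the neonatal and 3, 3 and 2 in the adult libraries, with none at Dcn, Lum and Col3a1. The part of these markers in the results below was not tested.

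Most guidance genes carried H4K8ac at a promoter at 1 age or both. A promoter peak is a peak the authors placed in their promoter class, within 3000 bp of a transcription start. Such a peak was present at 30, 63 and 23 guidance genes in the neonatal replicates and at 58, 52 and 55 in the adult replicates. Neonatal replicate 2 exceeded all adult libraries and the other neonatal libraries lay far below them, so the ages overlapped. The means were 38.7 ± 21.4 and 55.0 ± 3.00 genes (SD, n = 3 and 3), and the difference of 16.3 genes did not exceed the spread between libraries (two-sided exact permutation test, p = 0.4; Benjamini-Hochberg adjusted p = 0.457 over 8 quantities). The smallest p this design can give is 0.1. Without neonatal replicate 2 the difference was 28.5 genes, and without neonatal replicate 3 it was 8.50 genes.

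These genes held 46, 108 and 28 promoter peaks in the neonatal and 157, 134 and 144 in the adult replicates. No adult library overlapped a neonatal one, and the ratio of geometric means was 2.79 (two-sided exact permutation test, p = 0.1, the lowest possible; adjusted p = 0.2; n = 3 and 3). With peaks within 1000 bp of each other merged, the ages overlapped and the ratio was 2.02 (exact permutation test, p = 0.2, n = 3 and 3). Set against all promoter peaks of a library, the guidance genes took 0.593%, 0.513% and 0.429% in the neonatal and 0.495%, 0.428% and 0.462% in the adult replicates. These shares overlapped (difference -0.0497 percentage points, adult minus neonatal; exact permutation test, p = 0.4, n = 3 and 3). The guidance share of promoter peaks therefore did not separate the ages. In sorted bulk cells, more cells that carry the mark and more mark per cell cannot be told apart.

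**Figure D1:**
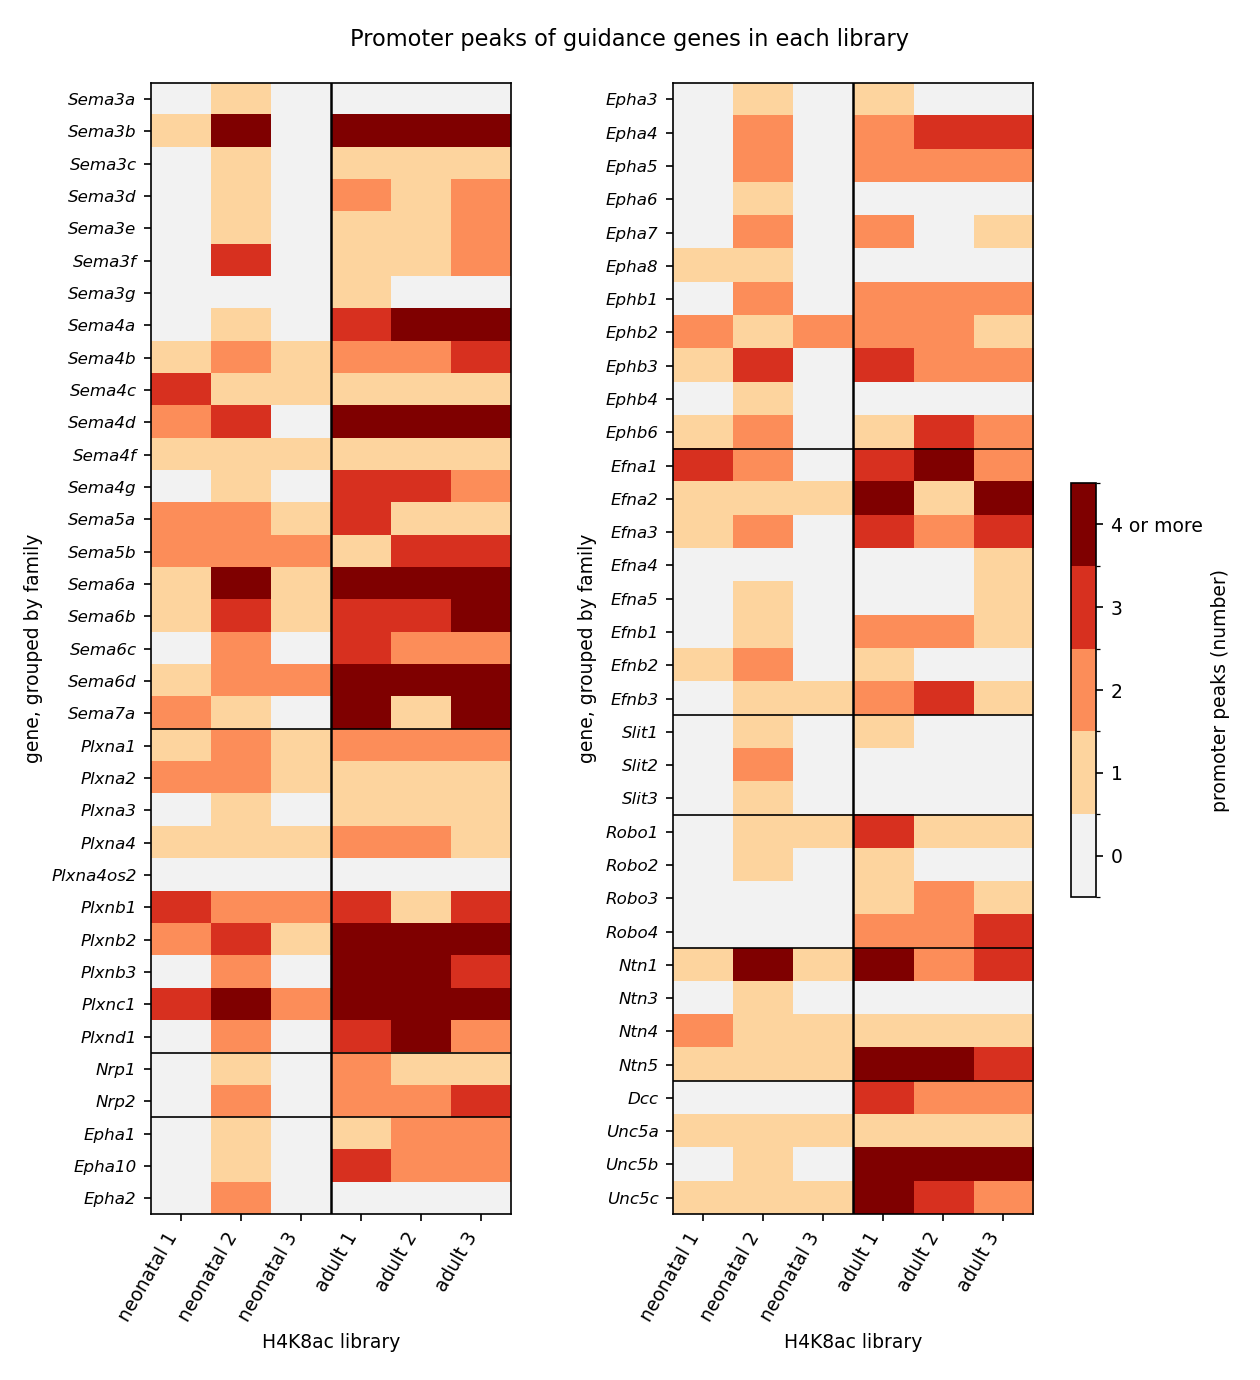
Number of promoter peaks of H4K8ac (colour) at each of the 69 guidance genes in the lists (rows, grouped by family) in the 3 neonatal and 3 adult libraries (columns). Neonatal replicate 2 has peaks at 63 genes, and the other neonatal libraries at 30 and 23.

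The receptor genes Dcc, Robo3 and Robo4 had a promoter peak in each of the 3 adult libraries and in none of the neonatal ones. That is 3 of 68 genes, against 12.1% of the 18548 genes with a promoter peak in any library. The reverse pattern was found at 0 guidance genes, against a background of 0.264%. Without neonatal replicate 2 the first count was 22 genes, so that library decides which guidance genes are called adult-only. The share of all genes without that library was not computed, so the 22 cannot be set against it. With a promoter window of 1000 bp the adult-only genes were Dcc, Epha4, Ntn5 and Robo4. A promoter peak in all 6 libraries was found at 21 of 68 genes, against 21.5% of all genes: Efna2, Ephb2, Ntn1, Ntn4, Ntn5, Plxna1, Plxna2, Plxna4, Plxnb1, Plxnb2, Plxnc1, Sema4b, Sema4c, Sema4f, Sema5a, Sema5b, Sema6a, Sema6b, Sema6d, Unc5a and Unc5c. None of these 21 is a neuropilin, Slit or Robo. For Ntn5, peaks overlapped the listed RefSeq window in 0 neonatal libraries and 1 adult library, and for Sema4f in no library. The place of both among the 21 therefore rests on assigned peaks.

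A further 31 genes had replicate 2 as their sole neonatal library with a promoter peak. Of these, 19 had one in every adult library, 5 in 1 or 2 adult libraries and 7 in none. For the 31 and the 19 the share of all genes was not computed. The 7 were the receptors Epha2, Epha6 and Ephb4 and the cues Ntn3, Sema3a, Slit2 and Slit3, and 7 of 68 compares with 4.84% of all genes. Sema3a, a secreted repellent, had 1 such peak with the authors' fold of 3.76 over background, and Slit2, a secreted ligand of Robos, had 2 with the higher at 5.03. For Ntn3, peaks overlapped the RefSeq window in 3 neonatal and 3 adult libraries, while a promoter peak was assigned to Ntn3 in neonatal replicate 2 alone. Its place among the 7 therefore rests on the gene assignment. Epha8 was the gene nearest to a neonatal-only pattern: it had 1, 1 and 0 promoter peaks in the neonatal and 0, 0 and 0 in the adult replicates.

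Among the cues, the semaphorins, the family with the most genes, had the highest number of genes with a marked promoter. In neonatal replicates 1 and 3 the netrins, at 3 of 4 genes, had the higher share. Promoter peaks were present at 11, 19 and 8 of 20 semaphorin genes in the neonatal and 19, 18 and 18 in the adult replicates. The difference of 5.67 genes was within the overlap of the groups (exact permutation test, p = 0.4, n = 3 and 3; adjusted p = 0.72 over 9 families), and it was 8.83 without neonatal replicate 2 and 3.33 without neonatal replicate 3. Of the secreted class 3 members, Sema3a to Sema3g, only Sema3b had a promoter peak in a neonatal library other than replicate 2. It had 1, 5 and 0 in the neonatal and 5, 7 and 6 in the adult replicates.

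Sema4d, a transmembrane cue made by oligodendrocytes, had 2, 3 and 0 promoter peaks in the neonatal and 15, 10 and 14 in the adult replicates. Every adult library was above every neonatal one, and its peaks included the widest of any guidance gene, 11710 bp in adult replicate 2 (chr13:51752227-51763936) and 11673 bp in adult replicate 3. The same stretch of the gene had a peak of 6777 bp in adult replicate 1. Sema4d also held the strongest guidance promoter peak within each adult list by the authors' fold, at 28.8, 19.8 and 19.4 over background. In neonatal replicate 1 it held the strongest as well, at 6.87. The 8 mature oligodendrocyte markers split by age in the same libraries, as given above.

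Other semaphorin promoters were marked at both ages. Sema4c, a transmembrane cue, had 3, 1 and 1 promoter peaks in the neonatal and 1, 1 and 1 in the adult replicates. Its neonatal replicate 2 peak, at 2416 bp, was the widest neonatal peak of the set. Sema6d, a transmembrane ligand of Plxna1, had 1, 2 and 2 promoter peaks in the neonatal and 4, 4 and 8 in the adult replicates, with no overlap. Sema4a had 0, 1 and 0 against 3, 4 and 5, and Sema4g 0, 1 and 0 against 3, 3 and 2. Sema7a, the membrane-tethered member, had 2, 1 and 0 against 5, 1 and 4, and the ages overlapped.

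Ephrins, the ligands of Eph receptors, had promoter peaks at 4, 7 and 2 of 8 genes in the neonatal and 6, 5 and 7 in the adult replicates (difference 1.67 genes; exact permutation test, p = 0.5, n = 3 and 3; adjusted p = 0.75). The difference was 3.00 genes without neonatal replicate 2 and 0.50 without neonatal replicate 3. Efna2 was marked in all 6 libraries with 1, 1 and 1 neonatal and 4, 1 and 4 adult promoter peaks. Efnb3, a transmembrane ephrin, had 0, 1 and 1 against 2, 3 and 1, and its adult replicate 3 peak was 10737 bp wide. Efnb1 had 0, 1 and 0 against 2, 2 and 1. Efnb2 had more neonatal than adult libraries with a promoter peak, with 1, 2 and 0 peaks against 1, 0 and 0. For Efna4, peaks overlapped the RefSeq window in 1 neonatal and 3 adult libraries, while a promoter peak was assigned to Efna4 in adult replicate 3 alone.

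The Slit genes were the least marked cues. Slit1, Slit2 and Slit3 all had a promoter peak in neonatal replicate 2, none had one in the other neonatal replicates, and Slit1 alone had one in an adult library, replicate 1. The difference of -0.667 genes had an exact permutation p of 1 (n = 3 and 3), and it turned to 0.333 without neonatal replicate 2. Netrin promoters were marked in every library, at 3, 4 and 3 of 4 genes in the neonatal and 3, 3 and 3 in the adult replicates. These numbers use assigned peaks, so Ntn3 enters in neonatal replicate 2 alone. With a promoter window of 1000 bp, Ntn5 had a promoter peak in each adult and no neonatal library. Ntn1, the attractant that binds Dcc, had 1, 4 and 1 promoter peaks against 5, 2 and 3, and Ntn5 had 1, 1 and 1 against 5, 4 and 3 with no overlap. Ntn4 had 2, 1 and 1 against 1, 1 and 1.

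Plexins, the semaphorin receptors, had promoter peaks at 6, 9 and 6 of 9 coding genes in the neonatal and at 9, 9 and 9 in the adult replicates (difference 2.00 genes; exact permutation test, p = 0.4, n = 3 and 3). The genes that lacked one in neonatal replicates 1 and 3 were Plxna3, Plxnb3 and Plxnd1. Plxnb3, a receptor of Sema5a, had 0, 2 and 0 promoter peaks against 4, 4 and 3. Plxnc1, the receptor of Sema7a, had 3, 4 and 2 against 5, 5 and 4, and the ages meet at 4. Plxnb1, the receptor of Sema4d, had 3, 2 and 2 against 3, 1 and 3. The neuropilins, which bind class 3 semaphorins, had promoter peaks at 0, 2 and 0 of 2 genes in the neonatal and 2, 2 and 2 in the adult replicates, with Nrp2 at 0, 2 and 0 against 2, 2 and 3 peaks.

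Eph receptors had the largest SD among the neonatal replicates of the 9 families, 6.81 genes. A promoter peak was present at 4, 14 and 1 of 14 genes in the neonatal and 10, 8 and 9 in the adult replicates (difference 2.67 genes; exact permutation test, p = 0.6, n = 3 and 3; adjusted p = 0.771). The difference was 6.50 genes without neonatal replicate 2 and 0 without neonatal replicate 3. Neonatal replicate 2 marked every Eph gene in the lists and neonatal replicate 3 marked Ephb2 alone. Ephb2, a receptor of B ephrins, had 2, 1 and 2 promoter peaks against 2, 2 and 1, and the authors' fold of its strongest promoter peak was 5.72, 8.90 and 6.57 in the neonatal lists. Ephb1 had 0, 2 and 0 against 2, 2 and 2, Epha1 0, 1 and 0 against 1, 2 and 2, and Epha10 0, 1 and 0 against 3, 2 and 2.

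The Slit and netrin receptors were the families in which the ages did not overlap in the number of marked genes. Robos had a promoter peak at 0, 2 and 1 of 4 genes in the neonatal and 4, 3 and 3 in the adult replicates, and netrin receptors at 2, 3 and 2 of 4 and 4, 4 and 4 (two-sided exact permutation test, p = 0.1, the lowest possible, for each; adjusted p = 0.45 over 9 families; n = 3 and 3). The ages overlapped for Robos with a promoter window of 1000 bp (difference 1.33 genes), for netrin receptors with peaks within 1000 bp merged (difference 1.00), and for both at equal list length. Dcc, the attractive netrin receptor, had 0, 0 and 0 promoter peaks against 3, 2 and 2. Robo4, which is known from endothelium, had 0, 0 and 0 against 2, 2 and 3, and Robo3, which is known for midline crossing of commissural axons, 0, 0 and 0 against 1, 2 and 1. The 3 adult-only genes thus hold between 1 and 3 promoter peaks per adult library. Robo3 and Robo4 are neighbours, with starts 9.68 kb apart on chromosome 9. The Robo3 peaks, among them chr9:37420893-37421518 in adult replicate 1, lay 1085 to 1510 bp from a transcript start inside the gene, and none overlapped the RefSeq window of Robo3. Endothelial Pecam1 and Kdr had a promoter peak in the same libraries as Robo4. The other endothelial markers, Cldn5, Cdh5, Flt1, Tek, Emcn and Slco1a4, had none in any library. The part of endothelial cells in the Robo4 peaks was not tested.

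Among the Unc5 genes, whose products mediate repulsion by netrins, Unc5b had 0, 1 and 0 promoter peaks against 8, 5 and 4. Its adult peaks reached 11662 bp in replicate 3 and 8896 bp in replicate 2. Unc5c had 1, 1 and 1 against 4, 3 and 2, and Unc5a had 1 in each of the 6 libraries. Over all families, each adult library had more promoter peaks than each neonatal library at 13 of 68 genes, against 24.7% of all genes with a promoter peak. The 13 were Dcc, Epha10, Ntn5, Plxnb2, Plxnb3, Robo3, Robo4, Sema4a, Sema4d, Sema4g, Sema6d, Unc5b and Unc5c. The reverse was found at 0 guidance genes, against 0.410%.

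**Figure D2:**
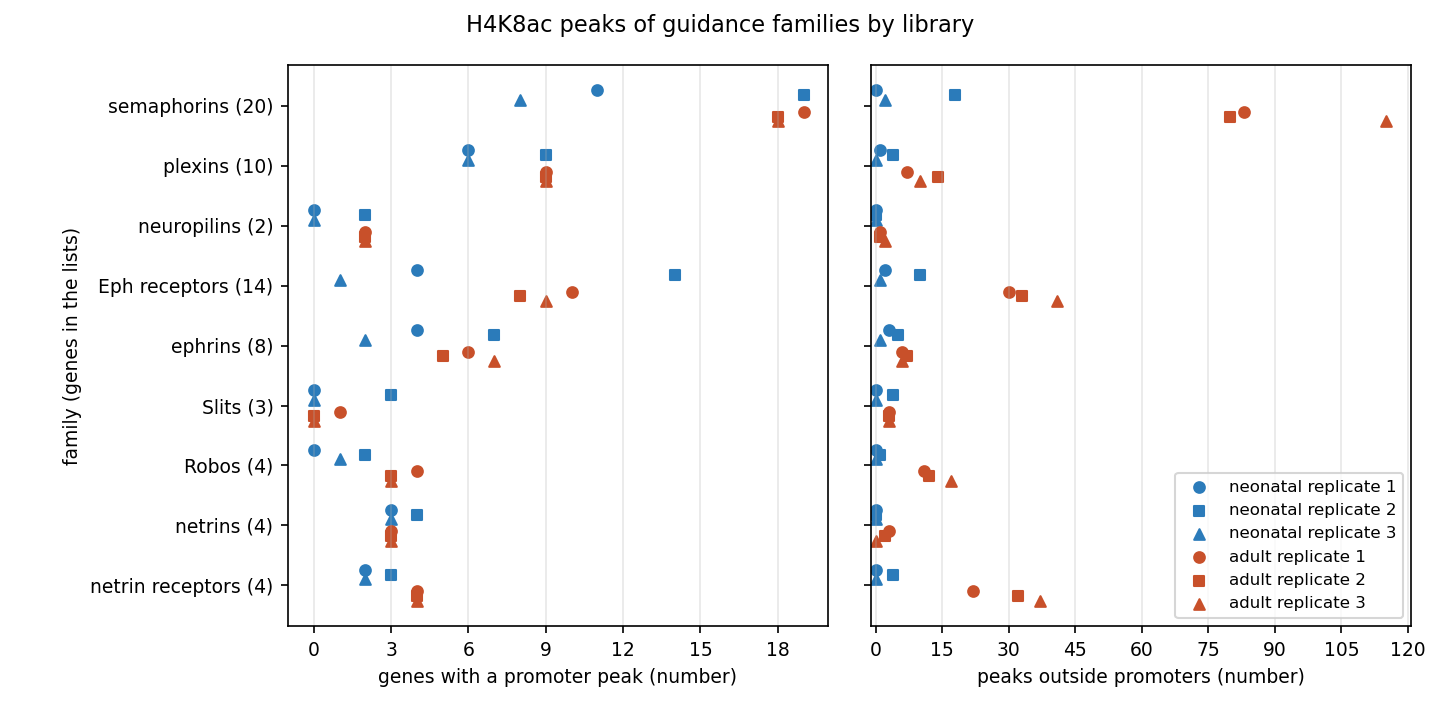
Guidance families by library: genes with a promoter peak (left, number) and peaks outside promoters (right, number), with 1 point for each neonatal (blue) and adult (red) replicate. For Eph receptors neonatal replicate 2 lies above the adult points on the left (14 genes against 10, 8 and 9) and below them on the right (10 peaks against 30, 33 and 41), while for Robos and netrin receptors it lies below every adult point on the left as well.

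Outside promoters the ages lay much further apart in the full lists, a difference that lists of equal length did not keep. Guidance genes held 6, 46 and 4 other peaks in the neonatal and 166, 184 and 231 in the adult replicates. No library of 1 age overlapped the other, and the ratio of geometric means was 18.6, or 39.2 without neonatal replicate 2 and 11.5 without neonatal replicate 3 (two-sided exact permutation test on all 6, p = 0.1, the lowest possible; adjusted p = 0.2; n = 3 and 3). With each list held to its strongest 7353 peaks, the numbers were 4, 1 and 4 against 2, 2 and 5, a ratio of 1.08 (exact permutation test, p = 1, n = 3 and 3). In lists of equal length, strongest means ranked by the authors' q-value first and by fold second. The share of all other peaks that fell to guidance genes overlapped between the ages. It was 0.447%, 0.454% and 0.487% in the neonatal and 0.409%, 0.445% and 0.504% in the adult replicates (exact permutation test, p = 0.8, n = 3 and 3). The promoter share of guidance peaks was 88.5%, 70.1% and 87.5% in the neonatal and 48.6%, 42.1% and 38.4% in the adult replicates. At that equal length it was 89.7%, 96.2% and 87.5% against 91.3%, 91.7% and 79.2%, and the ages overlapped (exact permutation test, p = 0.6, n = 3 and 3). The length covered by guidance peaks was 19.0, 80.4 and 11.7 kb against 204, 227 and 295 kb, a ratio of 9.12 (exact permutation test, p = 0.1, n = 3 and 3). Without neonatal replicate 2 this ratio was 16.

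For comparison, the 8 mature oligodendrocyte markers held 4, 10 and 0 other peaks in the neonatal and 80, 71 and 77 in the adult replicates, and the 8 OPC markers 8, 22 and 3 against 38, 29 and 34.

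A few genes held most of the guidance peaks outside promoters. In the adult libraries 581 other peaks fell to 35 guidance genes, and 8 of them (Sema6a, Sema5a, Ephb2, Dcc, Sema4d, Ephb1, Unc5c and Sema6d) held 396, or 68.2%. In the neonatal libraries 56 other peaks fell to 22 genes, and the same 8 held 25. Each adult library had more other peaks than each neonatal library at 20 of the 41 guidance genes with any, against 45.7% of all genes, and the reverse was found at 0, against 0.102%.

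Sema6a, a transmembrane cue, had 0, 4 and 0 other peaks in the neonatal and 22, 17 and 36 in the adult replicates. Sema5a, which has attractive and repellent functions, had 0, 6 and 0 against 14, 21 and 29. Both were clear of overlap. Sema4d had 0, 0 and 0 other peaks against 19, 13 and 14, which adds to its 10 to 15 adult promoter peaks.

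Among the receptors, Ephb2 had 2, 7 and 0 other peaks against 18, 20 and 20, and Ephb1 had 0, 0 and 0 against 9, 11 and 18. Dcc had 0, 1 and 0 against 14, 18 and 22, and Unc5c 0, 0 and 0 against 6, 13 and 14. For these 4 receptors all adult values lay above all neonatal ones. Robo1, a Slit receptor, had 0, 0 and 0 against 6, 7 and 13, and its neighbour in the family Robo2 had none in any library. Plxnd1, the receptor of Sema3e, had 1, 2 and 0 against 5, 8 and 6.

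Families with few other peaks had them in the adult libraries too. Slit3 had 0, 1 and 0 other peaks against 3, 3 and 3, although its promoter was marked in neonatal replicate 2 alone. Efnb1 had 1, 3 and 0 against 3, 3 and 2, which overlap, and Nrp2 0, 0 and 0 against 1, 1 and 2. Ntn5 had 0, 0 and 0 against 3, 2 and 0. By family the number of other peaks did not overlap between the ages for semaphorins (0, 18 and 2 against 83, 80 and 115), plexins, neuropilins, Eph receptors, ephrins, Robos and netrin receptors (0, 4 and 0 against 22, 32 and 37), and it overlapped for Slits and netrins. At equal list length the ages separated in 0 of the 9 families. Neuropilins, Slits, Robos, netrins and netrin receptors held 0 other peaks in every library there, so their ages could not separate. The other families held between 0 and 3 per library. The neuropilins also overlapped with q-values under 0.005 or peaks merged, and the ephrins with peaks merged. With the full lists the adjusted p was 0.129 for each family without overlap and 0.4 for Slits and netrins (exact permutation tests over 9 families, n = 3 and 3).

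**Figure D3:**
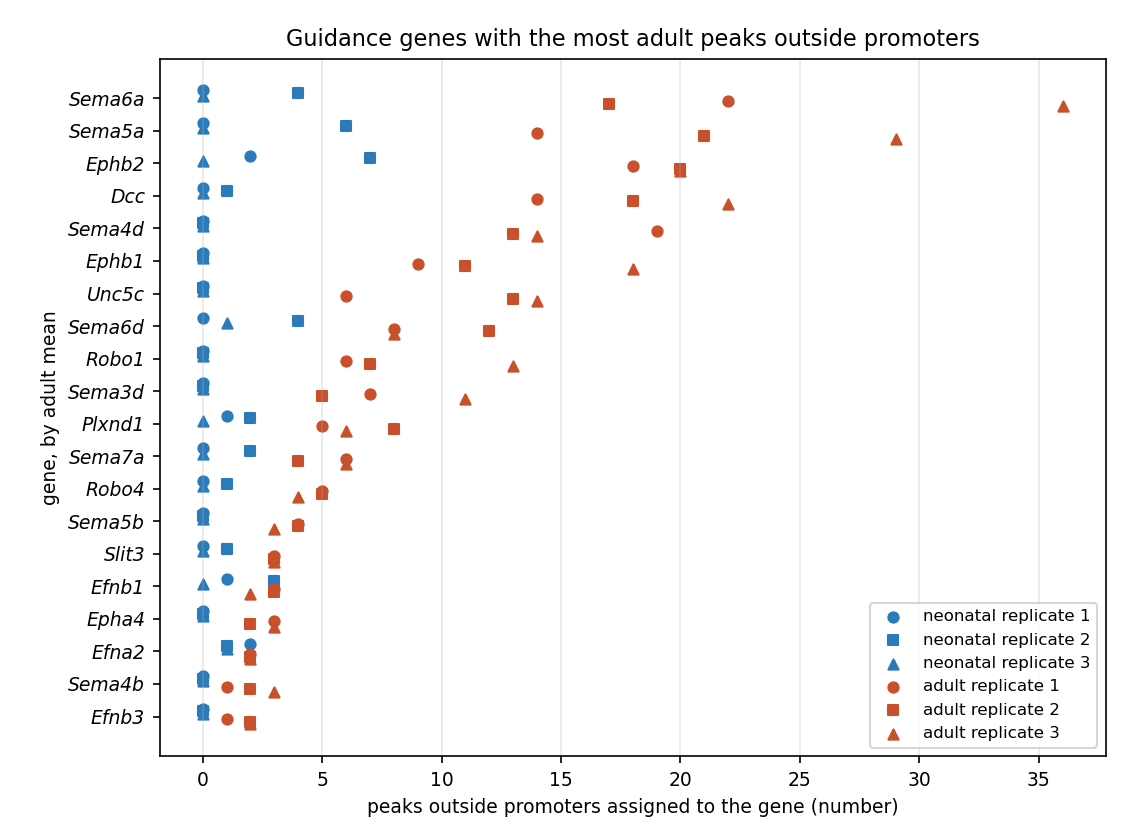
Peaks outside promoters (number, horizontal axis) at the 20 guidance genes with the highest adult mean, with 1 point for each neonatal (blue) and adult (red) replicate. Sema6a has 22, 17 and 36 adult peaks, and Sema4d, Ephb1 and Unc5c have 0 in all neonatal replicates.

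By position, 73.5%, 78.3% and 80.1% of the guidance other peaks in the adult replicates lay in introns, against 59.6%, 59.6% and 60.7% of all other peaks. Distal intergenic positions held 15.1%, 13.0% and 9.96% of them, against 32.3%, 32.6% and 31.1%. Many guidance genes are long, so peaks inside the gene were also counted per 100 kb of gene length for genes of at least 100 kb. The median over 31 guidance genes was 0.216 adult peaks per 100 kb, with 13 genes at 0, and over all 2125 such genes it was 0.372, with 809 at 0. Sema6a was highest with 14.3, 10.3 and 26.2 adult peaks per 100 kb, followed by Sema4d with 12, 10.2 and 10.2 and Ephb2 with 9.53, 10.6 and 10.6. Among the longest, Dcc, at 1098 kb, had 1.28, 1.64 and 2.00 and Robo1, at 1020 kb, had 0.588, 0.686 and 1.27, all above both medians. Robo2, at 1555 kb, and Epha6, at 969 kb, had 0. These densities describe where peaks were called and not how strong they were.

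With lists of equal length the direction of the promoter result turned. The strongest 7353 peaks of each library, the length of the shortest list, marked promoters of 25, 25 and 23 guidance genes in the neonatal and 18, 18 and 16 in the adult replicates. The ranking was by q-value first and fold second, so it is not a ranking by fold. The means were 24.3 ± 1.15 and 17.3 ± 1.15 genes (SD, n = 3 and 3), and every neonatal library was above every adult one (difference -7 genes; two-sided exact permutation test, p = 0.1, the lowest possible; adjusted p = 0.2). The guidance share of promoter peaks was 0.541%, 0.361% and 0.429% in the neonatal and 0.316%, 0.360% and 0.305% in the adult replicates. These do not overlap, but neonatal replicate 2 and adult replicate 2 differ by 0.361% against 0.360%. Covered length kept its direction, with a ratio of 4.48.

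The family differences at equal length were largest for the plexins, at -4 genes, and the netrins, at -2 genes. Plexin promoters were marked at 6, 7 and 6 genes in the neonatal and 3, 2 and 2 in the adult replicates, and netrin promoters at 3, 2 and 3 against 0, 1 and 1 (exact permutation test, p = 0.1 for each, n = 3 and 3; adjusted p = 0.45 over 9 families). Eph receptors were marked at 3, 3 and 1 genes against 3, 3 and 3, and netrin receptors at 2 in every library. Of the 39 guidance genes with a promoter peak among these strongest peaks, 6 had it in all neonatal and no adult libraries, against a background of 4.59%: Ntn1, Plxna4, Plxnc1, Sema5b, Sema6b and Unc5a. In the full lists all 6 had a promoter peak in every adult library too, so this pattern holds only among the strongest peaks. The adult-only pattern was found at 3, against 4.12%: Epha1, Ephb1 and Unc5b. A peak in all 6 was found at 6, against 22.8%: Efna2, Ephb2, Plxna1, Sema4c, Sema6d and Unc5c. Neonatal replicate 2 alone marked 4 (Ephb3, Plxna3, Plxnd1 and Slit1), against 4.52%. The adult-only Dcc, Robo3 and Robo4 of the full lists had no promoter peak among the strongest peaks of any library.

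**Figure D4:**
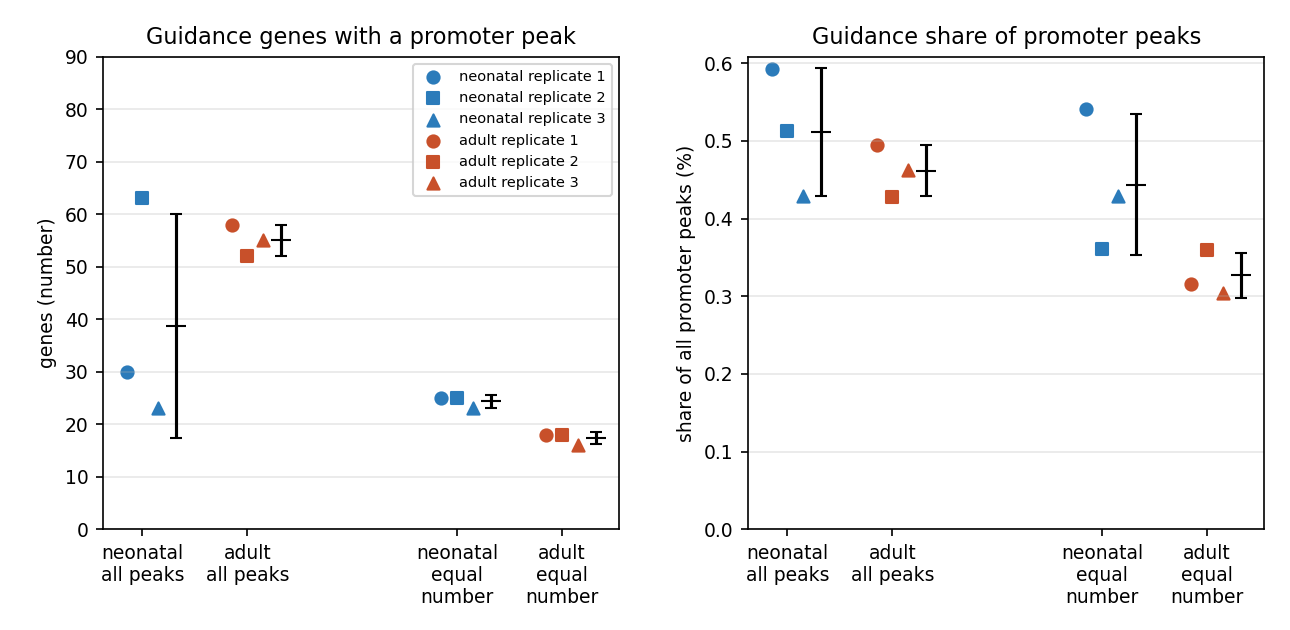
Guidance genes with a promoter peak (left, number) and the guidance share of promoter peaks (right, %) with all peaks and with the strongest 7353 peaks of each library. Points are replicates and bars the mean ± SD of 3 libraries: at equal number the neonatal replicates mark 25, 25 and 23 genes and the adult replicates 18, 18 and 16.

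Neonatal replicate 2 was also set beside adult lists of its own length, the strongest 31189 peaks, a comparison of 1 library with 3 that was added after the data were seen and has no test. It marked promoters of 63 guidance genes against 47, 42 and 45 in the adult replicates. Eph receptor promoters were marked at 14 genes against 8, 7 and 7, Slit promoters at 3 against 0, 0 and 0, and semaphorin promoters at 19 against 14, 15 and 15. Robos, at 2 against 3, 2 and 2, and netrin receptors, at 3 against 4, 3 and 3, did not follow. Its 46 other peaks lay within the adult range of 37, 38 and 54.

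Nearly all guidance sites in the authors' deposited table of differential sites were higher in adult cells, as were nearly all sites of the table. It lists 43888 sites, 43634 of them with a positive log2 fold change, with an adjusted p-value under 0.05 and gives no values per library, and a positive log2 fold change was read as higher in adult cells because between 85.0% and 96.7% of those sites overlap peaks of each adult library. Of the sites in the authors' deposited table, 188 fell to 43 guidance genes, of which 187 were higher in adult and 1 in neonatal cells. At promoters all 71 were higher in adult, against 19200 of all 19341, with a median log2 fold change of 1.92 in the authors' deposited table against 1.86 over all its promoter sites. Outside promoters 116 of 117 were higher in adult, against 24430 of all 24539, with a median of 2.37 in the authors' deposited table against 2.85 over all its other sites. By gene, 36 of 68 had a listed promoter site higher in adult, against 64.3% of all genes, and 23 of 41 an other site, against 56.9%. A promoter site higher in neonatal cells was listed at 0 guidance genes, against 0.728%, and an other site at 1, against 0.792%.

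The netrin receptor Unc5b had the largest promoter value of the guidance sites in the authors' deposited table, a log2 fold change of 6.41 at chr10:60829222-60829621 (adjusted p = 9.23e-08, as deposited). Robo4 followed with 6.08 at chr9:37400625-37401024 in the authors' deposited table. Peaks overlapped both sites in 3 adult and 0 neonatal libraries. Counting the best site of each guidance gene, the next largest promoter values in the authors' deposited table were 3.82 at Sema4d, 3.68 at Sema4g, 3.18 at Sema4a, 3.04 at Epha10, 2.87 at Plxnb3, 2.82 at Epha1, 2.64 at Efnb1 and 2.53 at Sema6d. Dcc and Robo3, which had promoter peaks in adult libraries alone, had 1.62 and 1.84 at their listed promoter sites in the authors' deposited table, both below the median of all promoter sites.

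Outside promoters Ephb1 had the largest value of the guidance sites in the authors' deposited table, 7.24 at chr9:102340948-102341347 in an intron. Ephb2 had the next guidance value in the authors' deposited table, 6.27 at chr4:136688714-136689113, also in an intron. Ephb1 and Ephb2 had 10 and 12 listed sites outside promoters in the authors' deposited table, with medians of 3.11 and 2.70. By the best site of each guidance gene, the next largest in the authors' deposited table were 4.77 at Robo4, 4.50 at Sema5a, 4.43 at Sema6a, 4.30 at Dcc, 3.99 at Ntn5, 3.87 at Sema4d, 3.86 at Sema7a and 3.72 at Unc5c. The Ntn5 site lies in an intron class position at chr7:45680100-45680499, before the RefSeq start of the gene at 45684022. Sema5a had 15 such sites and Dcc 14, with medians of 1.90 and 2.31 in the authors' deposited table, both below the median of all other sites.

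The authors' deposited table has a single guidance site with more signal in neonatal cells, which lay in the first intron of Epha3, a receptor of A ephrins, at chr16:63857087-63857486, with a log2 fold change of -1.34 (adjusted p = 0.0255, as deposited). Epha3 had 0, 1 and 1 other peaks in the neonatal and 0, 0 and 0 in the adult replicates, and its promoter had 0, 1 and 0 against 1, 0 and 0 peaks. The peaks of neonatal replicates 2 and 3 at this intron spanned 659 and 168 bp. The remaining 28 names, among them Ntn1, Plxna4, Sema6b and Unc5a, Slit1 and Slit2, and Epha8, had no listed site in the authors' deposited table. Plxnc1 and Sema5b, also neonatal-only among the strongest peaks, had listed sites that were all higher in adult cells. Plxnc1 had 1 promoter site at 1.10 and Sema5b 2 other sites, the larger at 3.07, in the authors' deposited table.

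**Figure D5:**
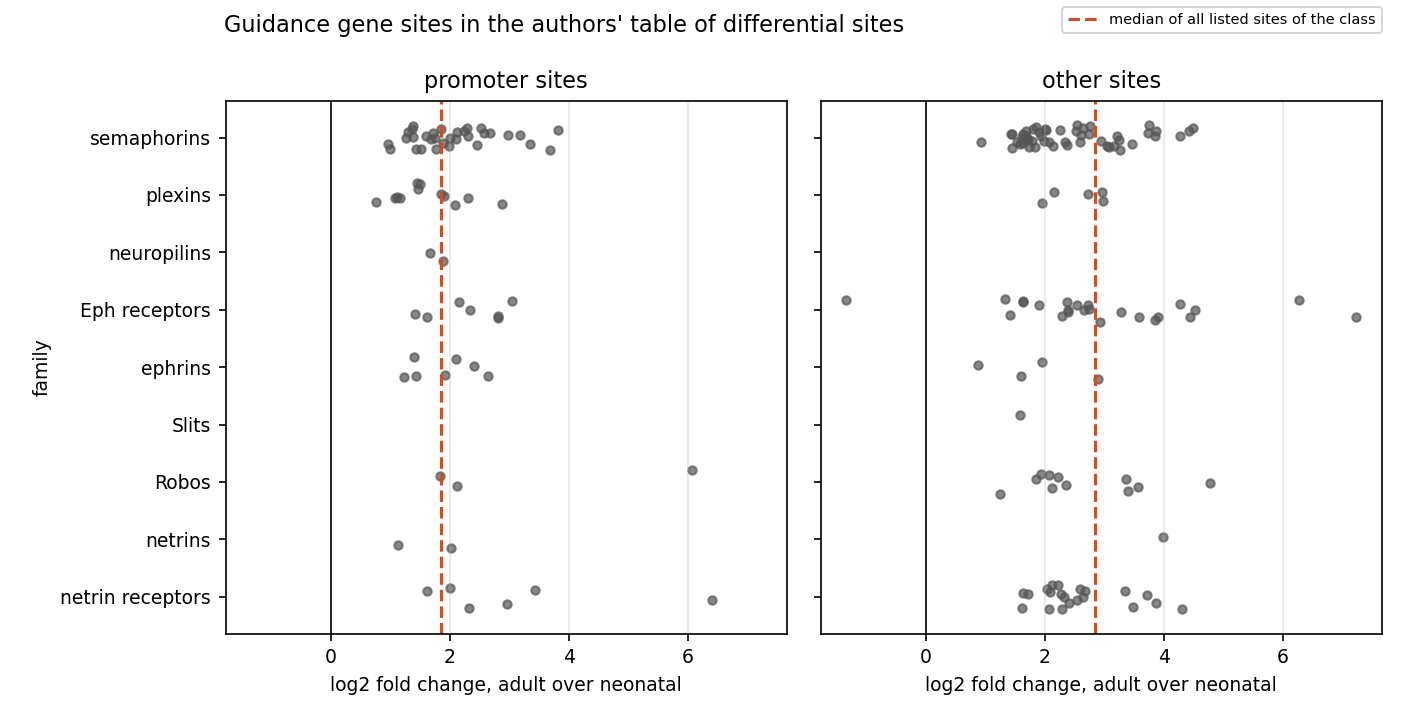
Log2 fold change (adult over neonatal, horizontal axis) of each guidance site in the authors' deposited table by family, for promoter sites (left) and other sites (right); dashed lines are the medians of all listed sites, 1.86 and 2.85. A single point, Epha3 at -1.34, lies below 0.

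Promoters of a further list of 54 genes were compared in the same way. It holds effectors inside the cell, such as the kinase Abl1, the actin regulators Enah and Cfl1 and the GTPases Rac1 and Rhoa, with a few further cues and co-receptors, such as Cxcl12, Cxcr4 and Neo1. Of these, 52 were in the lists, and 31, 50 and 31 had a promoter peak in the neonatal and 52, 51 and 49 in the adult replicates (difference 13.3 genes; exact permutation test, p = 0.2, n = 3 and 3; adjusted p = 0.32). In all 6 libraries 28 had one, against 21.5% of all genes with a promoter peak. Srgap3, which acts downstream of Robos, was the single gene of the list with one in all adult and no neonatal libraries, against 12.1%. At equal list length the numbers were 28, 30 and 31 against 32, 29 and 26. In the authors' deposited table, 41 genes of the list had a promoter site higher in adult cells, against 64.3% of all genes. A promoter site higher in neonatal cells was listed at 0 of them, against 0.728%. The median log2 fold change of their promoter sites in the authors' deposited table was 1.81. Draxin, a secreted cue that binds Dcc, and Mical2 had no promoter peak in any library.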

How the data were processed

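The authors deposited a list of H4K8ac peaks for each of the 6 libraries, called per library, with a nearest gene and position class for each peak, and a table of differential sites. Per the submitters' processing notes the tools were Trim Galore, Bowtie2 2.4.5, SAMtools, deepTools, MACS2, DiffBind and ChIPseeker on build GRCm38; their roles, and any use of the inputs, are not given in the sources used here. Per the file headers, each peak has a score, a fold over background (a linear ratio), and its p-value and q-value as −log10. For each site the deposited differential table has the log2 fold change with a raw p-value and one adjusted for multiple tests. Peak folds are the authors' own and rank peaks only within a list.

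Peaks were taken to genes and to the promoter class as annotated by the authors, with Python 3.11.15, numpy 2.4.6, pandas 2.3.3 and scipy 1.17.1. The lists hold peaks with q-values under 0.05. A site of the table took the gene and class of the peak sharing the most bases with it, with an overlap of at least 1 bp. The test between ages was an exact permutation test, two-sided, with all 20 ways to split 6 libraries into 3 and 3, on numbers of genes and shares as they are and on log2 numbers of peaks and log2 covered length (log2 of the number + 1 by family). P-values were adjusted by Benjamini-Hochberg over 8 quantities or 9 families. The p-values measure the spread between labelled biological replicates. The code was tested on simulated data.

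Genes given with a value in every library were those with promoter peaks in all libraries of 1 age and none of the other, the gene with the most adult other peaks in each family, any with a negative log2 fold change in the deposited table, the 10 largest of each class there, and the 5 strongest promoter peaks of each library; others named were chosen after their values were seen. The genes, the effector list and the marker lists were chosen with earlier results of these data known. Alternatives were a q-value limit of 0.005, equal list lengths, a promoter window of 1000 bp, merging of peaks within 1000 bp, assignment by position, a replicate block, leaving out each library, an adjusted p-value limit of 0.005 and a site overlap of 50%. For equal list lengths, peaks were ranked by q-value first and by fold second. Inputs were not analysed here.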

Additional observations from a re-analysis of the deposited data

How the results depend on the processing

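With 3 libraries against 3 no comparison could reach 0.05, so stability is given by direction. Read depth is unknown, and list length differs by age, which limits every number of peaks. With every list shortened to its strongest 7353 peaks, the direction turned for guidance genes with a promoter peak (-7), their promoter peaks (log2 ratio -0.49), effector genes (-0.667), the promoter genes of semaphorins (-1.33), plexins (-4), ephrins (-0.333) and Robos (-0.333), and the other peaks of plexins (-0.33), Eph receptors (-0.33) and ephrins (-0.53). At that length the difference was 0 for the promoter genes of netrin receptors, and the neonatal-only count was 6. The other peaks of neuropilins, Slits, Robos, netrins and netrin receptors were 0 in every library there, so they could show no difference. With neonatal replicate 2 against adult lists of its length, added after seeing the data, the differences were -18.3 promoter genes, -5.67 effector genes, and log2 ratios of -0.54 for promoter peaks and -0.12 for other peaks.

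The share of other peaks, which overlapped between ages, turned to 0.00678 at q-values under 0.005 and to 0.0508 with peaks merged. The netrin promoter difference was 0 at q-values under 0.005 and with peaks merged, and 0.667 with a promoter window of 1000 bp. With each library left out in turn, the adult-only count ranged from 3 to 22 and the neonatal-only count from 0 to 1. The shares of all genes under these omissions were not computed. Over the same omissions the share of other peaks ranged from -0.0356 to 0.0115 percentage points, and the promoter gene differences from -1.17 to 0.333 for Slits, -0.50 to 0 for netrins and 0 to 6.50 for Eph receptors. At adjusted p-values under 0.005 the deposited table kept 119 guidance sites with more adult signal and 0 with more neonatal signal, with medians of 2.31 at promoters and 2.76 elsewhere.

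The labels give no animal, litter, batch or day shared by same-numbered libraries. In covered length per gene, taken as the deviation from the mean of the age, same-numbered libraries correlated at -0.0115, -0.0471 and -0.0251. With 3 libraries per age these values cannot exclude a shared batch or day. The replicate block changed no direction, and its smallest possible p is 0.25; for promoter genes the difference with the block was 16.3. The cause of the changes was not tested, except that fewer peaks enter where lists are shortened.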

Other observations

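Merged over the 6 libraries, the guidance peaks made 494 regions, of which 78, or 15.8%, had a peak in all 3 adult and no neonatal libraries, against 20.4% of the 98027 regions of all genes. A peak in all 6 libraries was found in 23 guidance regions, or 4.66%, against 4.74% of all regions. Regions marked in all neonatal and no adult libraries numbered 0 of the 494, against 39 of the 98027. Neonatal replicate 2 alone marked 30 of the 494, against 5181 of the 98027. The share of guidance regions with a peak in all 6 libraries lay near that over all regions, and the adult-only share lay below it. No test of these shares was made.

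Taken by role, promoters of cues (semaphorins, ephrins, Slits and netrins) were marked at 18, 33 and 13 genes in the neonatal and 29, 26 and 28 in the adult replicates. Promoters of receptors were marked at 12, 30 and 10 against 29, 26 and 27. Outside promoters the cues held 3, 27 and 3 peaks against 95, 92 and 124, and the receptors 3, 19 and 1 against 71, 92 and 107.

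Within the neonatal lists, the guidance promoters with the best mean rank by the authors' fold, among those marked in all 3, were Ephb2, at the top 14.8% of the list on average, Plxnc1 at 16.9%, Plxna4 at 22.1% and Plxnb1 at 23.0%. Sema5a, at 63.4%, was the lowest of the 21.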
